A study of Mus musculus with 20 samples.

Results

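The genes described are 10 genes of MHC class I antigen presentation, taken by name from the 54532 genes in the count tables. They were the classical heavy chains H2-K1 and H2-D1, the non-classical heavy chains H2-Q4, H2-Q6, H2-Q7 and H2-T23, and B2m, Tap1, Tap2 and Tapbp, which encode the light chain and the peptide loading machinery. The genes were selected on measured values, namely their levels in MOV mimic and MOV control, so their difference between these groups is given as a description. Counts of calls in that contrast are printed for completeness and support nothing about the genes. RNA-seq had been carried out on plantaris muscles of male C57BL/6J mice aged 5 months, with 5 libraries in each of 4 groups. Mice had undergone a sham operation or mechanical overload (MOV), in which the synergist muscles of both hindlimbs are partly cut away so that the plantaris carries more load, and muscles were taken after 10 days. Every plantaris, sham muscles included, had received 50 µL of lentivirus during surgery. The left muscle was given a control virus and the right muscle a virus carrying a miR-1 mimic, both with a CMV promoter, which is not restricted to muscle fibers, and a TurboGFP reporter. The groups are named MOV control, MOV mimic, sham control and sham mimic. Each mouse thus gave 1 control and 1 mimic muscle, but the labels do not state that equal library numbers belong to the same mouse.

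MHC class I molecules display peptides from inside the cell to CD8 T cells and natural killer cells. A heavy chain pairs with beta-2 microglobulin, the product of B2m, and is loaded in the endoplasmic reticulum with peptides that the proteasome makes and that the Tap1 and Tap2 transporter carries across the membrane, while tapasin, the product of Tapbp, holds the empty heavy chain next to the transporter. H2-K1 and H2-D1 present peptides to CD8 T cells, H2-T23 encodes Qa-1, a ligand of the natural killer cell receptors CD94 and NKG2A, and H2-Q4, H2-Q6 and H2-Q7 encode Qa-2 related heavy chains. Interferon-gamma is a well known inducer of these genes, and mature muscle fibers are known for low class I levels.

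Promoter sequences are shown because many class I heavy chain genes are known to share a control region, the class I enhancer, that holds an NF-kB site next to an interferon response element. RefSeq promoters of build GRCm38.p6, each 300 bases long, were found for 9 of the 10 genes, with 2 for H2-K1 from neighboring start sites that hold the same match, and Tap2 was not matched. Capitals mark matches, on either strand, to the NF-kB consensus and to GAANNGAAA or GAAANNGAA, the spellings of an interferon response core used here, which were settled after these promoters had been read. Where neighboring or overlapping matches occur, all their bases are in capitals. The sequences run 5′ to 3′ on the strand of the gene, with H2-K1 at chr17:34000414-34000473 (minus strand), H2-D1 at chr17:35262908-35262967, H2-Q4 at chr17:35379428-35379487, H2-Q6 at chr17:35424662-35424721, H2-Q7 at chr17:35439007-35439065, B2m at chr2:122147533-122147585 (all plus strand) and H2-T23 at chr17:36032801-36032839 (minus strand).
H2-K1: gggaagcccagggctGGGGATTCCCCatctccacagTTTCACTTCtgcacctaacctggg
H2-D1: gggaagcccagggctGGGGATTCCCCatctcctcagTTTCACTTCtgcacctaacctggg
H2-Q4: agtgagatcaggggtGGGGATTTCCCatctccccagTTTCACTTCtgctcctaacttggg
H2-Q6: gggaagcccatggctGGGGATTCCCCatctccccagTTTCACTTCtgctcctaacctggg
H2-Q7: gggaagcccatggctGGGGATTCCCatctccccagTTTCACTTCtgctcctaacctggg
B2m: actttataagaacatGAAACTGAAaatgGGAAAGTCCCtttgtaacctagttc
H2-T23: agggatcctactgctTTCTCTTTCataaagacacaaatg

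The NF-kB consensus was present in the promoters of H2-K1, H2-D1, H2-Q4, H2-Q6, H2-Q7 and B2m, against 4.51% of 32851 promoters. GAANNGAAA was found beside it in the 5 heavy chains, and both motifs together occurred in 0.326% of all promoters. GAAANNGAA, which B2m and H2-T23 held, was in 8.56% of promoters, and GAANNGAAA alone in 7.52%. TTCNNNGAA, the STAT core, was in 8.30% of promoters and in 0 of the 10 promoters of these 9 genes. The promoters of Tap1 and Tapbp had no match to these spellings within their 300 bases. The classical heavy chains and the Q genes therefore carried nearly the same stretch of sequence, H2-T23 did not carry it, and the values of H2-T23 are set beside those of the other heavy chains in the comparisons that follow.

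Of the 10 genes, 9 lie on chromosome 17 and B2m lies on chromosome 2. In GRCm38.p6, H2-K1 is at chr17:33996012-34000619, H2-D1 at chr17:35263094-35267497, H2-Q4 at chr17:35379617-35384674, H2-Q6 at chr17:35424850-35430055, H2-Q7 at chr17:35439140-35443773 and H2-T23 at chr17:36029977-36032701. Tapbp is at chr17:33919478-33929290, Tap1 at chr17:34187556-34197225, Tap2 at chr17:34204479-34216321 and B2m at chr2:122147687-122153082. The annotation has another gene overlapping H2-T23 (A930015D03Rik), B2m (Patl2) and Tapbp (Gm19412). The heavy chains are also close copies of each other, with a coding identity from 80.9% (H2-Q4 and H2-T23) to 94.9% (H2-Q6 and H2-Q7). Of all 100-base windows of the coding sequence, 18.0% in H2-Q6, 18.3% in H2-Q7, 9.31% in H2-D1 and 6.26% in H2-T23 were shared exactly with another gene, and 0 in H2-K1, H2-Q4, B2m, Tap1, Tap2 and Tapbp. The division of counts among H2-Q6, H2-Q7, H2-D1 and H2-T23 is uncertain for this reason.

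Library totals ranged from 12036360 to 23056525 counted reads, and all 10 genes passed the filter on low counts in every comparison. Levels are given as CPM, counts scaled to a common library total with TMM normalization, always in the order of libraries 1 to 5. All 10 muscle fiber markers examined, among them Acta1, Ckm and Myh4, were present in every group and summed to between 72379 and 199331 CPM. In whole muscle, a change in the number of cells of a type and a change in RNA per cell cannot be told apart.

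Per kilobase of exon, B2m had the highest level of the 10 genes, with a median of 342 CPM per kb in sham control. H2-D1 (94.2) and H2-K1 (88.9) followed on the same scale and did not differ beyond their spread. Both lay above Tapbp (18.8 CPM per kb) without overlap, and Tapbp, H2-Q6 (12.04), H2-Q4 (11.7) and H2-T23 (9.74) overlapped, each with its neighbor among these 4. H2-Q7 (3.83 CPM per kb), Tap1 (3.15) and Tap2 (2.95) were at the bottom, overlapped with each other, and H2-Q7 did not overlap with H2-T23. The order was similar in MOV mimic, where B2m (923 CPM per kb), H2-K1 (356) and H2-D1 (267) stood above H2-Q6 (59.8), H2-T23 (41.5), H2-Q4 (38.2) and Tapbp (34.6), with H2-Q7 (13.7), Tap1 (9.76) and Tap2 (7.04) again lowest. Tapbp was thus the fourth gene in the other groups and the seventh in MOV mimic. In that group only H2-D1 and H2-Q6 were neighbors without overlap.

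**Figure D1:**
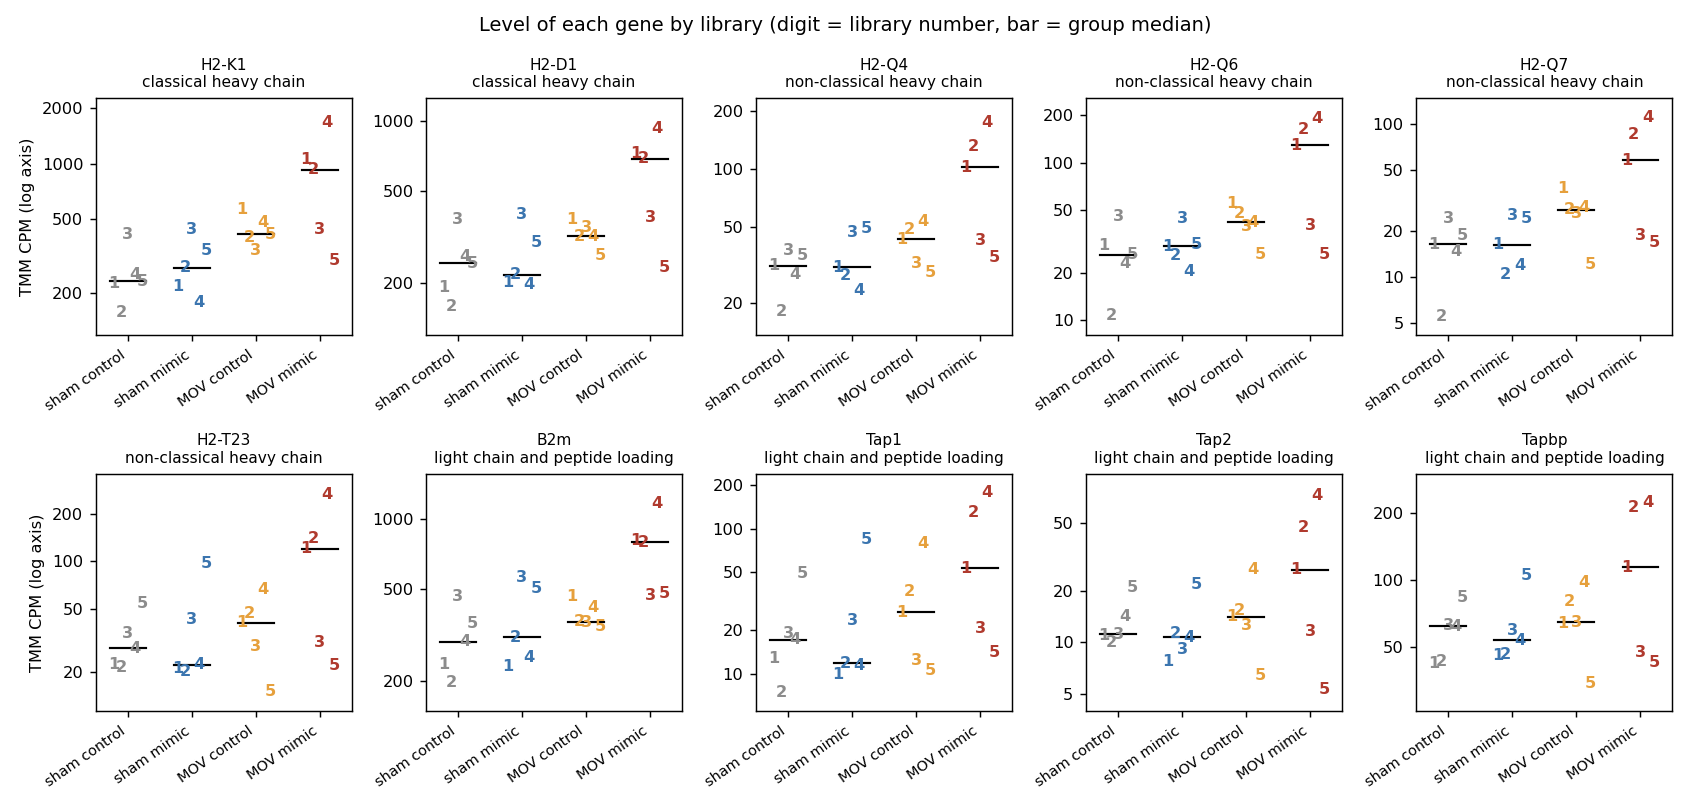
Each panel plots 1 gene as TMM CPM on a log axis against the 4 groups of 5 libraries, with each library shown by its number and the group median as a bar. In all panels MOV mimic libraries 1, 2 and 4 lie above libraries 3 and 5 of that group, which for B2m still lie above all MOV control libraries, and library 5 of both sham groups lies high for Tap1, at 49.0 and 84.6 CPM.

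All 10 genes had a higher mean in MOV mimic than in MOV control, and libraries 1, 2 and 4 held the 3 highest MOV mimic values of each gene. H2-K1, a classical heavy chain, stood at 564, 398, 339, 480.1 and 415 CPM in MOV control. In MOV mimic it was at 1060, 929, 439, 1682 and 299 CPM. Libraries 1, 2 and 4 of MOV mimic were above all MOV control libraries, library 3 was inside their range and library 5 below it. The fitted difference of H2-K1 was 1.01 on the log2 scale (SE 0.37), 2.01-fold. H2-D1, the other classical heavy chain, had levels of 375, 318, 347, 318 and 263 CPM in MOV control and of 727, 690.3, 386, 934 and 233 CPM in MOV mimic. For H2-D1, 4 MOV mimic libraries were above MOV control and library 5 was below it, with a log2 difference of 0.88 (SE 0.30).

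Among the non-classical heavy chains, H2-T23 showed the widest range. It was at 40.9, 46.7, 28.8, 66.4 and 15.004 CPM in MOV control, against 119.9, 139.8, 30.7, 266 and 21.8 CPM in MOV mimic. Libraries 1, 2 and 4 again exceeded every control muscle, and libraries 3 and 5 did not. With all libraries in the fit, H2-T23 had the largest log2 difference of the 10 genes, 1.55 (SE 0.58), or 2.92-fold, and it was 0.99 without MOV mimic library 4. H2-Q6 measured 54.8, 47.4, 39.4, 42.0 and 26.3 CPM in MOV control and 129.6, 164, 40.3, 191 and 26.4 CPM in MOV mimic, so that libraries 3 and 5 had the levels of control muscles. Its log2 difference was 1.40 (SE 0.45). H2-Q4 measured 43.0, 48.2, 32.1, 53.3 and 28.8 CPM in MOV control and 102, 131, 42.0, 174 and 34.5 CPM in MOV mimic, a log2 difference of 1.24 (SE 0.38). H2-Q7, the heavy chain with the lowest level, measured 38.0, 27.6, 26.2, 28.4 and 12.1 CPM in MOV control and 58.2, 86.3, 18.6, 111 and 16.8 CPM in MOV mimic, a log2 difference of 1.14 (SE 0.47). In both genes the groups overlapped through libraries 3 and 5.

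B2m, the light chain shared by all class I molecules, was the 1 gene of the 10 whose groups did not overlap. Its levels were 464, 359.9, 356, 416 and 342 CPM in MOV control and 809, 794, 468, 1165 and 478 CPM in MOV mimic. The lowest MOV mimic library was just above the highest MOV control library, and the log2 difference was 0.94 with the smallest SE of the 10 genes (0.24). Of 15220 genes tested, 0.315% had all MOV mimic libraries above all MOV control libraries. Tap1, a chain of the peptide transporter, was at 26.5, 36.8, 12.4, 79.0 and 10.6 CPM in MOV control and at 53.5, 130.3, 20.7, 178 and 14.1 CPM in MOV mimic. Control library 4 exceeded mimic library 1, and the log2 difference of 1.26 had the largest SE (0.68). Tap2, the partner chain, was at 14.1, 15.5, 12.6, 26.9 and 6.36 CPM in MOV control and at 26.6, 47.6, 11.5, 72.7 and 5.26 CPM in MOV mimic, with a log2 difference of 1.12 (SE 0.56). Tapbp was at 63.7, 80.3, 64.7, 98.1 and 34.6 CPM in MOV control and at 114, 212, 47.5, 222 and 43.0 CPM in MOV mimic, with a log2 difference of 0.91 (SE 0.43). Mimic libraries 3 and 5 of Tap2 and Tapbp were below the median of MOV control.

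By class, the median log2 difference between MOV mimic and MOV control was 0.94 for the 2 classical heavy chains, 1.32 for the 4 non-classical heavy chains and 1.03 for the light chain and the 3 loading genes, and -0.01 over all genes tested. The fitted differences ranged from 0.88 to 1.01 in the classical and from 1.14 to 1.55 in the non-classical heavy chains. These estimates did not overlap, but the SEs of the heavy chains, 0.30 to 0.58, were larger than the gap. By equal library number, described below, the median of H2-Q7 (0.62) lay under those of H2-K1 (0.91) and H2-D1 (0.96). The fitted differences of the light chain and loading genes (0.91 to 1.26) overlapped with both classes. The difference between classes was not tested. Leaving out 1 library moved the median of the 10 genes to between 0.73 (without MOV mimic library 4) and 1.38 (without MOV mimic library 5). Without MOV mimic library 4, the differences were 0.64 for H2-K1, 0.99 for H2-T23, 0.73 for Tap1, 0.60 for Tap2 and 0.62 for Tapbp, and H2-Q6 had the largest (1.11). Without MOV control library 4, Tap1 had the largest (1.87). edgeR's quasi-likelihood test called 0 of the 10 genes at an adjusted p under 0.05, as it did for all genes (0%). At an unadjusted p under 0.05 it gave 7 of the 10 genes and 4.21% of all genes. DESeq2 called 0 of the 10 genes and 0.0197% of all genes. Since the genes were chosen with this contrast known, nothing is read from these counts.

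Libraries of equal number were also compared within a surgery, as the log2 of the CPM in mimic over that in control. Equal numbers are not known to be legs of 1 mouse. In MOV, the median over the 10 genes was 0.94, 1.51, 0.12, 1.63 and 0.29 for numbers 1 to 5. All 10 genes were higher in mimic for numbers 1, 2 and 4, and 7 of them for numbers 3 and 5. H2-Q4, H2-Q6, H2-T23, B2m and Tap1 were higher in all 5 comparisons, although by as little as 0.00 for H2-Q6 in number 5, and 3.87% of 16166 genes were higher in all 5. H2-K1, H2-D1, H2-Q7 and Tapbp were higher in 4 of 5 and Tap2 in 3 of 5. The classes parted for number 5, where the classical heavy chains were lower in mimic (H2-K1 -0.47 and H2-D1 -0.17) and the 4 non-classical heavy chains were between 0.00 and 0.54. For number 3 the class medians had the other order, 0.26 for the classical (0.15 to 0.37) and 0.06 for the non-classical heavy chains (-0.49 to 0.39). The lowest values of number 3 were those of H2-Q7 (-0.49) and Tapbp (-0.45), and the highest was that of Tap1 (0.73). In sham, the medians for numbers 1 to 5 were -0.03, 0.64, 0.08, -0.32 and 0.43, with 2, 9, 7, 0 and 10 genes higher in mimic. None of the 10 genes was higher in all 5 sham comparisons, and 2.34% of all genes were.

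**Figure D2:**
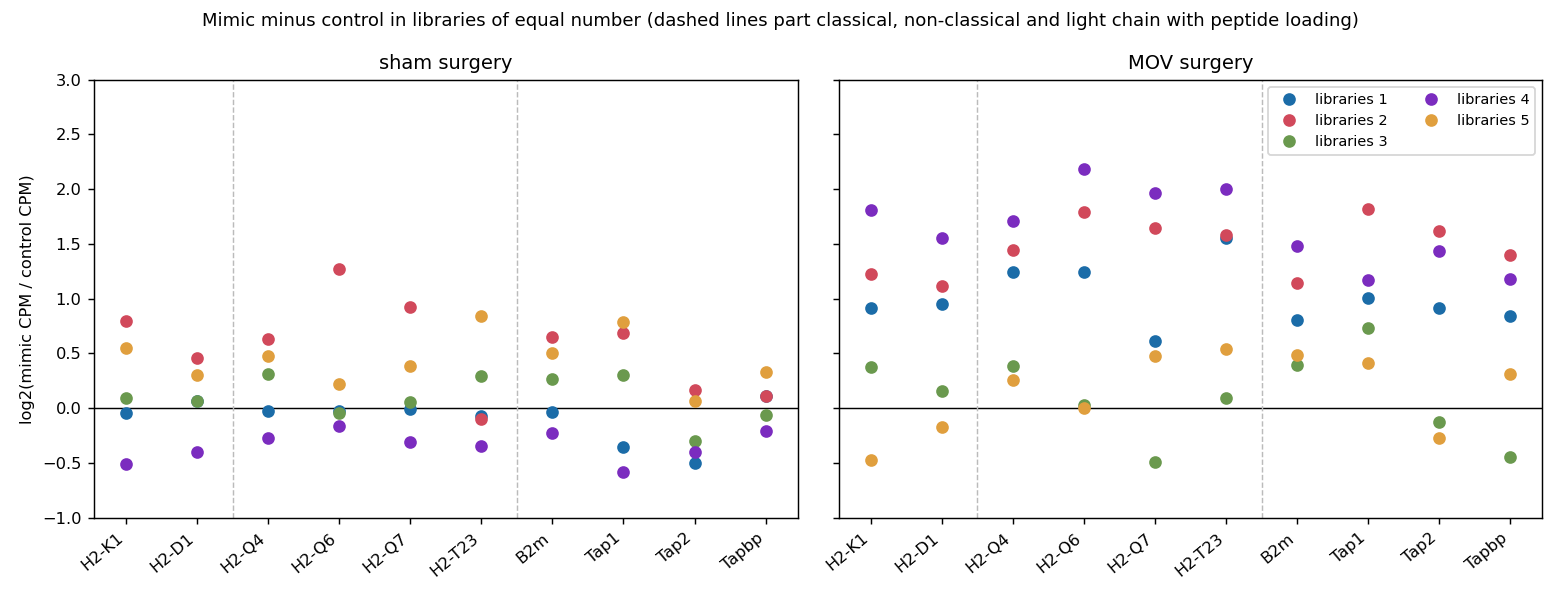
Each point is the log2 ratio of mimic to control CPM of 1 gene in libraries of equal number, for sham (left) and MOV (right), with genes along the x axis and the number given by color. In MOV, numbers 1, 2 and 4 lie at 0.62 or above for each gene, whereas numbers 3 and 5 lie on both sides of 0, as the sham points do.

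Overload with the control virus was compared by testing MOV control against sham control. These MOV control libraries also entered the contrast with which the genes were chosen. All 10 genes had a higher mean in MOV control, and none passed the adjusted threshold in edgeR. H2-K1 measured 225, 157, 413, 252 and 232 CPM in sham control, lower than any MOV control library in 4 of 5 libraries, the exception being library 3. Its log2 difference was 0.79 (SE 0.23, 1.72-fold), with an unadjusted p of 0.00499 and an adjusted p of 0.111 in edgeR's quasi-likelihood test. In edgeR, H2-K1 was also the only 1 of the 10 genes with an unadjusted p under 0.05, against 18.2% of the 14974 genes tested. In DESeq2 there were 3 of the 10 genes, against 2918 of the 14974. DESeq2 gave H2-K1 an adjusted p of 0.0272 and called 1 of the 10 genes and 6.1% of all genes. Without sham control library 3, edgeR gave H2-K1 a log2 difference of 1.03 and an adjusted p of 0.0240. edgeR with all libraries called 0 of the 10 genes and 0.00668% of all genes, which was 1 gene.

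H2-D1 measured 192, 159, 378, 261 and 244 CPM in sham control and overlapped with MOV control, with a log2 difference of 0.40 (SE 0.21, adjusted p = 0.330 in edgeR). The non-classical heavy chains had log2 differences of 0.47 for H2-Q4 (SE 0.22), 0.64 for H2-Q6 (SE 0.31), 0.75 for H2-Q7 (SE 0.35) and 0.31 for H2-T23 (SE 0.35), with adjusted p values in edgeR between 0.279 and 0.677. B2m measured 235, 197, 463, 294 and 353 CPM in sham control, a log2 difference of 0.34 (SE 0.21, adjusted p = 0.426 in edgeR). Its partners in peptide loading had log2 differences of 0.66 for Tap1 (SE 0.57), 0.18 for Tap2 (SE 0.32) and 0.23 for Tapbp (SE 0.26). Without library 4 of MOV control, the difference was 0.03 for Tap1, -0.16 for Tap2, 0.04 for Tapbp and 0.02 for H2-T23. In 0 of the 10 genes did MOV control lie wholly above sham control, as 2.44% of all genes did. The median difference was 0.59 for classical heavy chains, 0.55 for non-classical heavy chains, 0.28 for the light chain and loading genes and 0.04 for all genes.

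The mimic was compared with control in sham muscles to see whether the genes differed without overload. They did not pass the test, and 9 of 10 differences were above 0. The log2 difference was 0.18 for H2-K1 (SE 0.28), 0.09 for H2-D1 (SE 0.26), 0.26 for B2m (SE 0.30) and 0.43 for Tap1 (SE 0.65), with adjusted p values of 1.00 in edgeR. H2-Q4 (0.24, SE 0.24), H2-Q6 (0.15, SE 0.31), H2-Q7 (0.15, SE 0.35) and H2-T23 (0.34, SE 0.45) also had log2 differences within 1 SE of 0. Tap2 was at -0.15 (SE 0.29) and Tapbp at 0.08 (SE 0.26). edgeR and DESeq2 each called 0 of the 10 genes and 0% of 14746 genes. At an unadjusted p under 0.05 there were 0 of the 10 genes and 1.72% of all genes, and in 0 of the 10 did sham mimic lie wholly above sham control (0.142% of all genes). Without sham mimic library 5, the difference was -0.57 for Tap1, -0.27 for H2-T23 and -0.19 for Tapbp. Whether the effect of the mimic differed between MOV and sham was not tested.

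**Figure D3:**
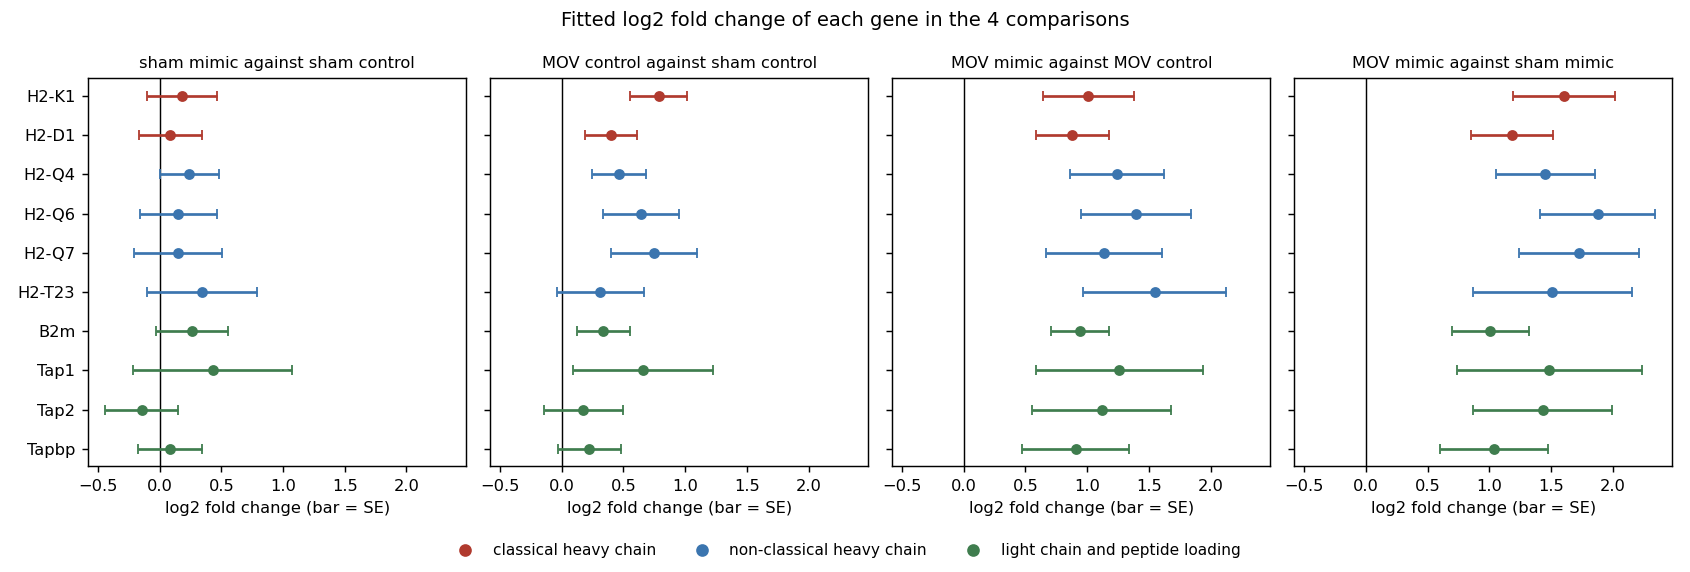
Each point is the log2 fold change of 1 gene fitted by edgeR, with its SE as a bar, in the 4 comparisons of 5 against 5 libraries, colored by class. In sham mimic against sham control the 10 genes lie between -0.15 and 0.43, and in MOV mimic against MOV control all 10 lie between 0.88 and 1.55.

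MOV mimic was further set beside sham mimic, as a description, since it shares the MOV mimic libraries. The log2 differences were 1.61 for H2-K1 (SE 0.41) and 1.18 for H2-D1 (SE 0.33). With all libraries in the fit, H2-Q6 had the largest difference, 1.88 (SE 0.47). Among the non-classical heavy chains it was followed by H2-Q7 (1.73, SE 0.49), H2-T23 (1.51, SE 0.64) and H2-Q4 (1.46, SE 0.40). Tap1 was at 1.49 (SE 0.75), Tap2 at 1.43 (SE 0.56), Tapbp at 1.04 (SE 0.44) and B2m at 1.01 (SE 0.31). When single libraries were left out, Tap1 lay between 0.96 and 2.48, H2-T23 between 0.95 and 2.12 and Tap2 between 0.92 and 1.75. H2-Q6 lay between 1.60 and 2.12, so it did not have the largest difference in every fit. The median of these genes lay between 0.96 and 1.72. The class medians were 1.39, 1.62 and 1.24 in the order used above, and that of all genes was 0.02.

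Ratios between the genes show how evenly they varied. H2-K1 over H2-D1 in CPM was 1.17, 0.991, 1.09, 0.969 and 0.951 in sham control. In MOV control it was 1.504, 1.25, 0.978, 1.51 and 1.58, above sham control in all libraries but the third. MOV mimic ranged from 1.14 to 1.80 and sham mimic from 0.899 to 1.26. The classical heavy chains held between 75.7% and 89.2% of the CPM of the 6 heavy chains over all 20 libraries. Their share was lowest in MOV mimic library 2 and highest in MOV control library 5. B2m over the sum of the heavy chains was 0.454 to 0.580 in sham control and 0.406 to 0.449 in MOV control, without overlap, whereas sham mimic, at 0.444 to 0.598, overlapped with both. It was 0.368, 0.371, 0.489, 0.347 and 0.756 in MOV mimic, so that the libraries with the highest heavy chain levels had the lowest ratio and library 5 had the highest of all libraries. These ratios describe unequal differences and do not show which of the genes differed.

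Library 5 of both sham groups differed from its group in the loading genes and in H2-T23, and much less in the classical heavy chains. Tap1 measured 12.7, 7.39, 19.0, 17.2 and 49.0 CPM in sham control and 9.89, 11.9, 23.3, 11.5 and 84.6 CPM in sham mimic. H2-T23 measured 22.1, 21.3, 34.7, 28.1 and 54.0 CPM in sham control and 21.1, 19.98, 42.7, 22.2 and 96.5 CPM in sham mimic. Library 5 was the highest in each case. Tap1 over H2-K1 was 0.211 in sham control library 5 and 0.249 in sham mimic library 5, and between 0.0433 and 0.0683 in the other 8 sham libraries. In MOV control library 4 this ratio was 0.164, with Tap1 at 79.0 CPM and H2-K1 at 480.1 CPM. Tap2 and Tapbp were also highest in library 5 of both sham groups, at 20.9 and 83.6 CPM in control and at 21.8 and 105 CPM in mimic. H2-K1 was at 232 and 340.5 CPM in these libraries, inside the range of its groups.

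The other genes of the pathway were taken from lists. Among 18 other class I heavy chains, 15 were matched and 6 could be tested in MOV control against sham control, where edgeR called 0. H2-T22, a ligand of gamma-delta T cells (log2 difference 0.41, SE 0.16, adjusted p = 0.195), and H2-Q8 (1.05, SE 0.42, adjusted p = 0.211) had the smallest p. H2-T10 (0.43, SE 0.35) and H2-T24 (0.46, SE 0.36) followed. Between MOV mimic and MOV control, 7 of these heavy chains had differences from 0.54 to 1.34 with a median of 1.05. Of 7 class I-like genes, which share the class I fold but do not present peptides to CD8 T cells, 5 were tested, edgeR called 0, and all 5 differences between MOV control and sham control were below 0. Mr1, which presents metabolites to MAIT cells, was at -0.85 (SE 0.22, adjusted p = 0.0791) and Procr, the protein C receptor, at -1.24 (SE 0.32, adjusted p = 0.0809). Fcgrt, the neonatal Fc receptor, was at -0.36 (SE 0.16) and Hfe, which binds the transferrin receptor, at -0.14 (SE 0.15). DESeq2 called 2 of these 5 genes lower, against 6.1% of all genes called in either direction (914 genes, of which 394 were higher). The class I-like list had a median of 0.05 between MOV mimic and MOV control, against 1.13 for the 10 genes.

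Of 7 proteasome genes, edgeR and DESeq2 each called 0 between MOV mimic and MOV control. At an unadjusted p under 0.05 there were 3 in edgeR, against 4.21% of all genes, and 4 in DESeq2, against 814 of all 15220 genes. The proteasome genes were listed with this contrast known, so the counts support nothing, and the difference between the immunoproteasome and the constitutive subunits was not tested. Psmb8 and Psmb10, catalytic subunits of the immunoproteasome, had log2 differences of 1.52 (SE 0.55) and 1.33 (SE 0.59) between MOV mimic and MOV control. Psmb8 was at 15.4, 17.7, 12.02, 25.3 and 7.14 CPM in MOV control and at 47.3, 59.9, 10.3, 96.2 and 9.69 CPM in MOV mimic, high in libraries 1, 2 and 4 as the heavy chains were. Psme1 and Psme2, which form the proteasome activator, were at 1.07 (SE 0.30) and 0.81 (SE 0.42), whereas the constitutive subunits Psmb5, Psmb6 and Psmb7 were at -0.34, -0.24 and -0.22. Between MOV control and sham control edgeR called 0 of these 7 genes, and the smallest p were those of Psme2 (0.58, SE 0.27, adjusted p = 0.275), Psmb6 (0.30, SE 0.14), Psmb5 (0.30, SE 0.15) and Psmb10 (0.69, SE 0.41). Of 8 other genes of the loading complex and the endoplasmic reticulum, the chaperones Calr (0.19, SE 0.16), Canx (0.05, SE 0.15), Pdia3 (0.05, SE 0.21) and Hspa5 (0.08, SE 0.17) had small log2 differences between MOV mimic and MOV control. Tapbpl, a relative of tapasin, was at 0.83 (SE 0.57) and Erap1, which trims peptides, at 0.50 (SE 0.31), while Lnpep (-0.10) and Sec61a1 (-0.07) were below 0, and the median of the 8 genes was 0.06. In MOV control against sham control edgeR called 0 of these 8, with Lnpep, an aminopeptidase (0.36, SE 0.10, adjusted p = 0.0935), Sec61a1 (0.39, SE 0.35), Erap1 (-0.19, SE 0.19) and Pdia3 (0.26, SE 0.27) having the smallest p. DESeq2 called 1 of the 8, against 6.1% of all genes.

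Of 22 genes of class I regulation, 21 could be tested and edgeR called 0 in each comparison. In MOV control against sham control the smallest p were those of Jak2, a kinase of the interferon-gamma receptor (-0.90, SE 0.20, adjusted p = 0.0630), Rfx5, a subunit of the factor that binds class I and class II promoters (0.79, SE 0.19, adjusted p = 0.0696), Rela, the p65 subunit of NF-kB (0.36, SE 0.16), and Ifngr1, a receptor chain (-0.28, SE 0.16). DESeq2 called 1 of these 21 genes higher and 1 lower, against 6.1% of all genes called in either direction. Nlrc5, the transactivator of class I genes, measured 6.77, 4.52, 9.19, 13.2 and 29.2 CPM in sham control and 6.39, 6.25, 12.7, 8.71 and 37.7 CPM in sham mimic. It measured 15.8, 21.7, 12.02, 53.0 and 4.79 CPM in MOV control and 29.6, 90.6, 14.8, 124 and 5.58 CPM in MOV mimic. Like Tap1 and H2-T23, Nlrc5 was highest in library 5 of both sham groups and in library 4 of both MOV groups. Ifng, which encodes interferon-gamma and is named here after its values were seen, did not pass the filter on low counts. It had 10, 59, 4, 141 and 0 counts in MOV mimic, with 10.4 CPM in library 4 and 2.76 CPM in library 2, and no more than 7 counts in any library of the other groups.

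Markers of other cell types moved with some of the libraries. The sum of 5 leukocyte markers (Ptprc, Cd52, Coro1a, Laptm5 and Itgb2, all 5 of them detected in each group) was 146, 151, 152, 52.0 and 60.7 CPM in MOV control. In MOV mimic it was 233, 351, 157, 246 and 75.2 CPM, highest in the libraries with the highest class I levels. The same sum was between 34.1 and 152 CPM in sham control and between 38.8 and 146 CPM in sham mimic. In MOV mimic against MOV control the median log2 difference of these markers was 1.01, close to the 1.13 of the 10 genes. The sum of 7 T cell and natural killer cell markers was 3.62 to 20.7 CPM in MOV control and 45.9, 49.6, 18.4, 39.0 and 14.7 CPM in MOV mimic, with all 7 detected. Cd8a, the coreceptor for class I, was among them, with mean levels of 4.92 CPM in MOV mimic, 1.63 in MOV control, 0.867 in sham mimic and 0.619 in sham control. For 5 dendritic cell markers the sum was 18.3 to 32.2 CPM in MOV control and 17.5 to 53.4 CPM in MOV mimic. Macrophage and monocyte markers, 7 in number, summed to 187 to 742 CPM in MOV control and 404 to 729 CPM in MOV mimic. The 4 B cell markers did not exceed 3.84 CPM in any library. In MOV mimic against sham mimic the median log2 difference of the 10 genes was 1.47. It was 2.36 for T and natural killer cell, 1.47 for dendritic cell, 1.18 for leukocyte and 0.20 for macrophage and monocyte markers. Fibroblast (-0.24), muscle fiber (-0.36) and endothelial markers (-0.66) had medians below 0. The part of these cells in the class I levels was not tested.

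Tap1 and the leukocyte markers were not high in the same libraries throughout. MOV control library 4 had the highest Tap1 of its group (79.0 CPM) and the lowest leukocyte sum (52.0 CPM). Sham library 5 had the highest Tap1 of its group with a leukocyte sum of 105 CPM in control and 103 CPM in mimic, both inside the range of their groups. H2-D1 did not stand out in these control libraries, at 318 CPM in MOV control library 4 (group range 263 to 375) and at 244 CPM, the group median, in sham control library 5. In MOV control library 4, however, H2-Q4 (53.3 CPM) and H2-T23 (66.4 CPM) were the highest of the group. H2-K1 (480.1 CPM), B2m (416 CPM) and H2-Q7 (28.4 CPM) were above the group median there, and H2-Q6 (42.0 CPM) was at it. In MOV mimic library 5, in contrast, Tap1 (14.1 CPM), H2-K1 (299 CPM) and the leukocyte sum (75.2 CPM) were all the lowest of the group. Muscle fiber markers in MOV mimic summed to 113769, 72379, 145984, 94425 and 119755 CPM, lowest in libraries 2 and 4. Endothelial markers summed to 200.5 to 238 CPM and fibroblast markers to 2147 to 3971 CPM in MOV mimic, against 138 to 282 CPM and 1022 to 4662 CPM in MOV control.

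**Figure D4:**
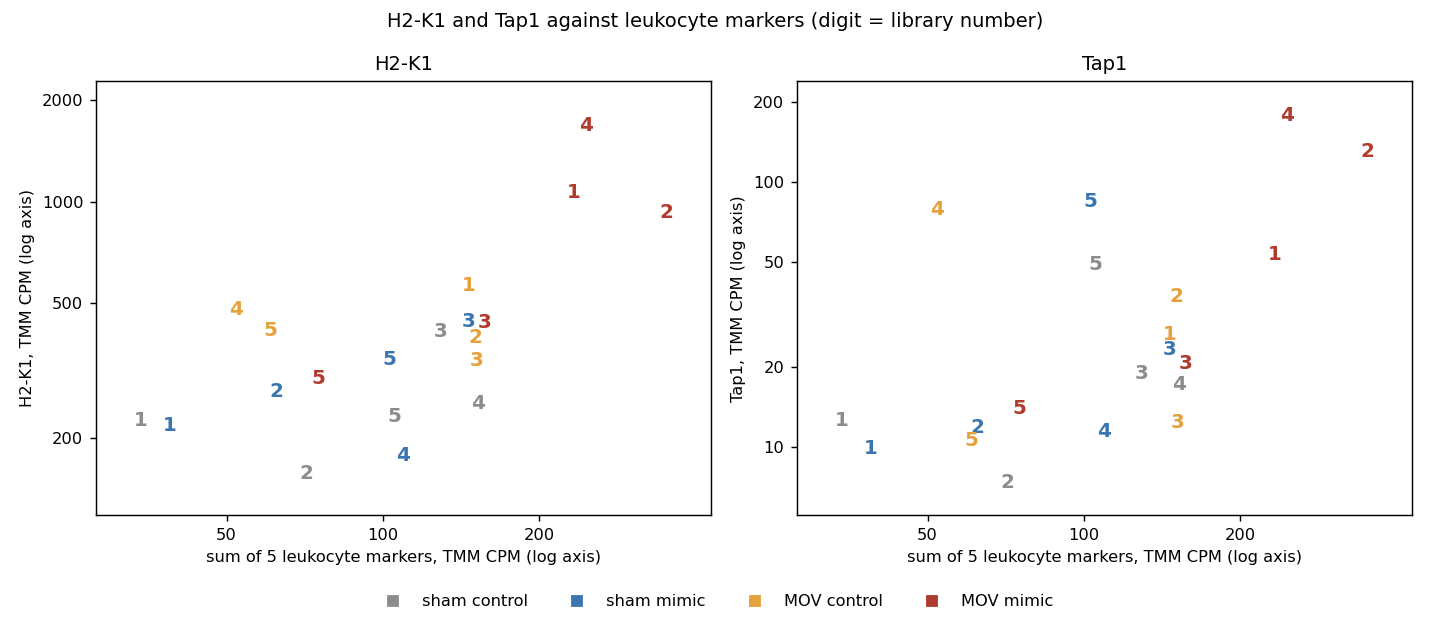
H2-K1 (left) and Tap1 (right) in TMM CPM are plotted against the sum of 5 leukocyte markers, both on log axes, with each of the 20 libraries shown by its number and colored by group. MOV mimic libraries 1, 2 and 4 lie at the upper right of both panels, whereas for Tap1 MOV control library 4 and library 5 of both sham groups lie high at leukocyte sums of 52.0 to 105 CPM.

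The 10 genes varied together within groups. After the group means had been taken away, the Pearson r between pairs of the genes over the 20 libraries was between 0.634 and 0.958, with a median of 0.851 over 45 pairs. It was 0.946 for H2-K1 with H2-D1, and the non-classical heavy chains had a median of 0.928 among themselves. Classical heavy chains with loading genes and B2m had a median of 0.714. Of 16156 other genes, those most like the mean profile of the 10 genes were Psmb8 (r = 0.951), Psmb10 (0.939), Cxcl9 (0.921), H2-T22 (0.913), 5133401N09Rik (0.909), Gbp8 (0.908), Bst2 (0.907), H2-DMa (0.902), Nlrc5 (0.896) and Irf8 (0.895). Cxcl9 is a chemokine for T cells, Gbp8 a guanylate-binding protein, Bst2 the antiviral protein tetherin, H2-DMa a chain of the class II loading factor and Irf8 a transcription factor of myeloid cells. By list, the mean profile of the other class I heavy chains had an r of 0.914 with the 10 genes, the regulators 0.781, dendritic cell markers 0.700, the proteasome genes 0.681, leukocyte markers 0.593, the loading and endoplasmic reticulum genes 0.544, B cell markers 0.485 (2 genes), T and natural killer cell markers 0.353, macrophage markers 0.254, the class I-like genes -0.33 and muscle fiber markers -0.56. Endothelial and fibroblast markers were at 0.0198 and 0.0367. These values are descriptions over libraries that share their depth and cell content within each gene pair, and MOV mimic libraries, with the widest spread, weigh most in them.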

How the data were processed

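The authors deposited raw counts per Ensembl gene, without normalization or filtering, in separate tables for control and mimic. Per the study's methods and the labels, reads had been trimmed (cutadapt 4.4 with Trim Galore 0.6.10), aligned to GRCm38 (HISAT2 2.0.5) and counted (featureCounts 1.5.0-p3). Annotation release, strand setting and treatment of reads with several alignments are not given in the sources used here. The 2 tables were joined by gene identifier, and 32640 of 54532 genes were given a symbol. Levels are TMM CPM over 20 libraries, and log2 CPM values used a prior count of 2. Each comparison was fitted on its own 10 libraries with edgeR 4.0.16 (filterByExpr, TMM, two-sided quasi-likelihood test, no covariate, Benjamini-Hochberg adjustment over all genes tested, threshold 0.05) in R 4.3.3. DESeq2 1.42.0 and limma 3.58.1 (voom with quality weights), other normalization and filters, replicate number as a block, all 20 libraries together and leaving out single libraries were alternatives, and the fits were tested on simulated data. The genes, the lists and the tests were chosen with earlier results of these data known. From each other list, up to 4 genes with the smallest p in MOV control against sham control are named, and the 10 genes with the most similar profile. The remaining loading, endoplasmic reticulum and proteasome genes and Ifng were named after their values were seen. Exon lengths come from GENCODE vM1, whose build is older than that of the counts. By the study's methods the libraries of a group come from separate mice, and no library of a group was a copy of another. Since control and mimic muscles came from the same mice and no block was used, their comparison treats them as independent. Fold changes and other results of the authors were not used.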

Additional observations from a re-analysis of the deposited data

Results flagged for a closer look

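For 4 of the 40 combinations of gene and group, 1 library lay far from the other 4 by Dixon's ratio (critical value 0.71). All 4 were the fifth sham library. Tap1 was at 49.0 CPM in sham control library 5 and at 84.6 CPM in sham mimic library 5. In sham mimic library 5, Tap2 was at 21.8 CPM and Tapbp at 105 CPM. For normally distributed values, chance marks about 1 in 20 groups in this way. The ratio was taken on CPM without a log scale, so the rate for these data is not known. The 4 values are not independent, since 3 of them come from the same library. The cause was not tested.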

How the results depend on the processing

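All 10 genes kept a positive difference in both comparisons of MOV mimic under every alternative run. In MOV mimic against MOV control, edgeR called 0 genes, against 3 with DESeq2 and 1 with all 20 libraries in one edgeR fit. None of the 10 genes was among them, nor when 1 library was left out. In MOV mimic against sham mimic, edgeR called 0 genes, against 221 of 14918 with DESeq2 (4 of the 10 genes). The count was 1 without a filter, 3 with all 20 libraries and 2 with voom. Leaving out 1 library gave from 0 to 101 calls (0 to 3 of the 10 genes). The 101 calls, of 15332 genes, and the 3 genes came without MOV mimic library 5. The genes were chosen on the MOV mimic libraries, so these counts support nothing about them. In MOV control against sham control, edgeR called 1 gene, against 914 with DESeq2 (1 of the 10 genes, H2-K1), 388 without a filter, 163 with at least 10 counts in total, 36 with all 20 libraries and 294 with voom. When 1 library was left out the count lay between 0 and 426, with 0 to 1 of the 10 genes. It was 426 of 15162 genes without sham control library 3, which left H2-K1 called, and 318 of 15307 without MOV control library 5. The difference of Tap2 lay between -0.16 and 0.39 and that of B2m between 0.21 and 0.53 when 1 library was left out. In sham mimic against sham control, leaving out 1 library turned 8 of the 10 genes, with differences from -0.013 to 0.44 for H2-K1, -0.10 to 0.31 for H2-D1, -0.038 to 0.44 for H2-Q6, -0.059 to 0.37 for H2-Q7, -0.27 to 0.61 for H2-T23, -0.57 to 1.01 for Tap1, -0.46 to 0.068 for Tap2 and -0.19 to 0.25 for Tapbp. B2m lay between 0.075 and 0.47 and H2-Q4 between 0.10 and 0.37, above 0 throughout. The cause of these shifts was not tested. CPM values with DESeq2's size factors were lower by 0.08 to 1.03%.

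Equal library numbers were not taken as pairs. The correlation of deviations from the group means between libraries of equal number was 0.0116 to 0.663 in sham (mean 0.232) and 0.0347 to 0.321 in MOV (mean 0.163). Between libraries of other numbers it was -0.493 to 0.280 in sham (mean -0.052) and -0.236 to 0.155 in MOV (mean -0.040). Of the control libraries, 2 of 5 in sham and 3 of 5 in MOV correlated best with their own number. Equal numbers were thus more alike on average, but the labels do not state that they are legs of 1 mouse. With the number as a block, edgeR called 0 of the 10 genes in each comparison. With the block in DESeq2, MOV mimic against MOV control had 127 of 15220 genes called, 6 of the 10 genes among them (H2-D1, H2-Q4, H2-Q6, H2-T23, B2m and Tap1). The 10 genes were chosen with this contrast known, so that the count supports nothing about them. MOV control against sham control had 722 of 14974 genes called (1 of the 10, H2-K1). MOV mimic against sham mimic had 116 of 14918 with 0 of the 10 genes, against 4 of the 10 in DESeq2 without the block. The median difference of the 10 genes between MOV mimic and MOV control was 0.87 with the block in edgeR.

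How reads matching several heavy chains were counted is not known, which limits the separate values of H2-Q6, H2-Q7, H2-D1 and H2-T23. Tap2 and H2-Q7 rested on the fewest counts, with no fewer than 83 and 90 in a library. With 5 libraries a group, the calls of H2-K1 and the direction of Tap1 in sham changed when 1 library was left out.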
